A study of Mus musculus with 16 samples.

Results

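Bile ducts are lined by cholangiocytes, and when a liver is injured cells with duct features spread out from the portal tracts in what is called a ductular reaction. Such cells carry keratins that hepatocytes lack, express the transcription factor SOX9, and share surface proteins with the progenitors of the fetal liver. Some liver cancers also express these genes. The genes described here are 8 that mark such cells: the keratins Krt19, Krt7 and Krt23, the transcription factor Sox9, the surface proteins Epcam, Cd24a and Prom1, and Spp1, which encodes the secreted protein osteopontin. Each was read from the array row that carries its symbol and no other, taking the row with the highest mean where a gene had several. Of the 8 genes, 7 had such a row, out of 22180 genes with a row on the array. Spp1 had none and is not analysed here. A gene was tested where its level lay above the array's median on at least 4 of the 16 arrays, which held for 6 of the 7 genes and for 13555 genes in all. Krt23 exceeded that median on 1 array and was not tested. Krt19, Krt23 and Sox9 lie on chromosome 11, Krt7 on 15, Epcam on 17, Cd24a on 10 and Prom1 on 5.

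The series holds 16 arrays from 8 mice aged 18 months on a C57BL/6J background. The groups are tumours of MYC/REG3A mice, non-tumour livers of the same MYC/REG3A mice, tumours of MYC mice, and non-tumour livers of the same MYC mice, with 4 mice of each genotype and 1 array per tissue of a mouse. MYC/REG3A mice carry a transgene for REG3A, a secreted lectin, and the WHC-MYC transgene, which drives c-MYC in the liver from woodchuck hepatitis virus control elements. Their genotype is given as MYC+/+, REG3A+/+. MYC mice carry the WHC-MYC transgene alone, and their genotype is given as MYC+/+, REG3A-/-. All 4 groups therefore carry MYC, none is a liver without it, and the labels do not say which promoter drives REG3A. The values are log2 expression levels after array normalisation by the RMA method, and no detection calls came with them, so how far a gene stood above background is not known. Levels of different genes come from different probes and are not compared with each other. The tissue is a mixture of cells, so fewer cells of a type and less RNA per cell cannot be told apart.

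The 16 arrays had near-equal distributions, with medians of 4.90 to 4.97, and 0 pairs held identical values. The mean log2 level of 12 hepatocyte genes, which defines liver tissue, lay between 11.30 and 11.70 in MYC/REG3A tumours, 11.66 and 11.81 in MYC/REG3A livers, 11.43 and 11.52 in MYC tumours, and 11.53 and 11.70 in MYC livers. None of the 7 bile duct genes fell below an array's lower quartile, which was 3.71 to 3.77, on any array. Some arrays stood apart. On the first principal component, which held 49.2% of the variance, MYC/REG3A mice 2 and 4 had tumours at -4.21 and 2.55, between the other 6 tumours (32.7 to 42.3) and the livers (-31.0 to -26.4). The non-tumour liver of MYC mouse 1 had the highest level among the 8 livers for 6 of the 7 bile duct genes, all but Sox9, where 19.3% of all tested genes were highest. The counts of bile duct genes called, and some but not all other results, are given with and without these arrays.

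The clearest change was a lower level of the surface protein genes in tumours. In MYC mice 4 of the 6 tested genes were lower in tumour than in non-tumour liver, namely Epcam, Cd24a, Prom1 and Krt19, and 0 were higher (limma, Benjamini-Hochberg adjusted p under 0.05 over all tested genes). Of all tested genes, 33.2% passed that threshold in MYC mice, 17.4% as higher and 15.8% as lower. The median change of the 6 genes was -0.80 on the log2 scale, against -0.03 for all tested genes. Without MYC mouse 1 the count was 1, Epcam, and without MYC mouse 2 it was 2, Epcam and Prom1. These fits rest on fewer mice, and the share of all tested genes called in them is not given here. Whether the loss is particular to these genes was not tested. In MYC/REG3A mice 0 of the 6 passed, where 12.5% of all tested genes did (4.88% as lower), and 1 of the 6, Cd24a, had an unadjusted limma p under 0.05. Their median change there was -0.25, against -0.02 for all tested genes. Averaged over both genotypes, a comparison added after seeing the data, Epcam, Cd24a and Prom1 were lower and the other 3 tested genes did not pass. In that comparison 43.0% of all tested genes passed, 21.4% as lower, and it uses the same arrays as the comparisons within each genotype.

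**Figure D1:**
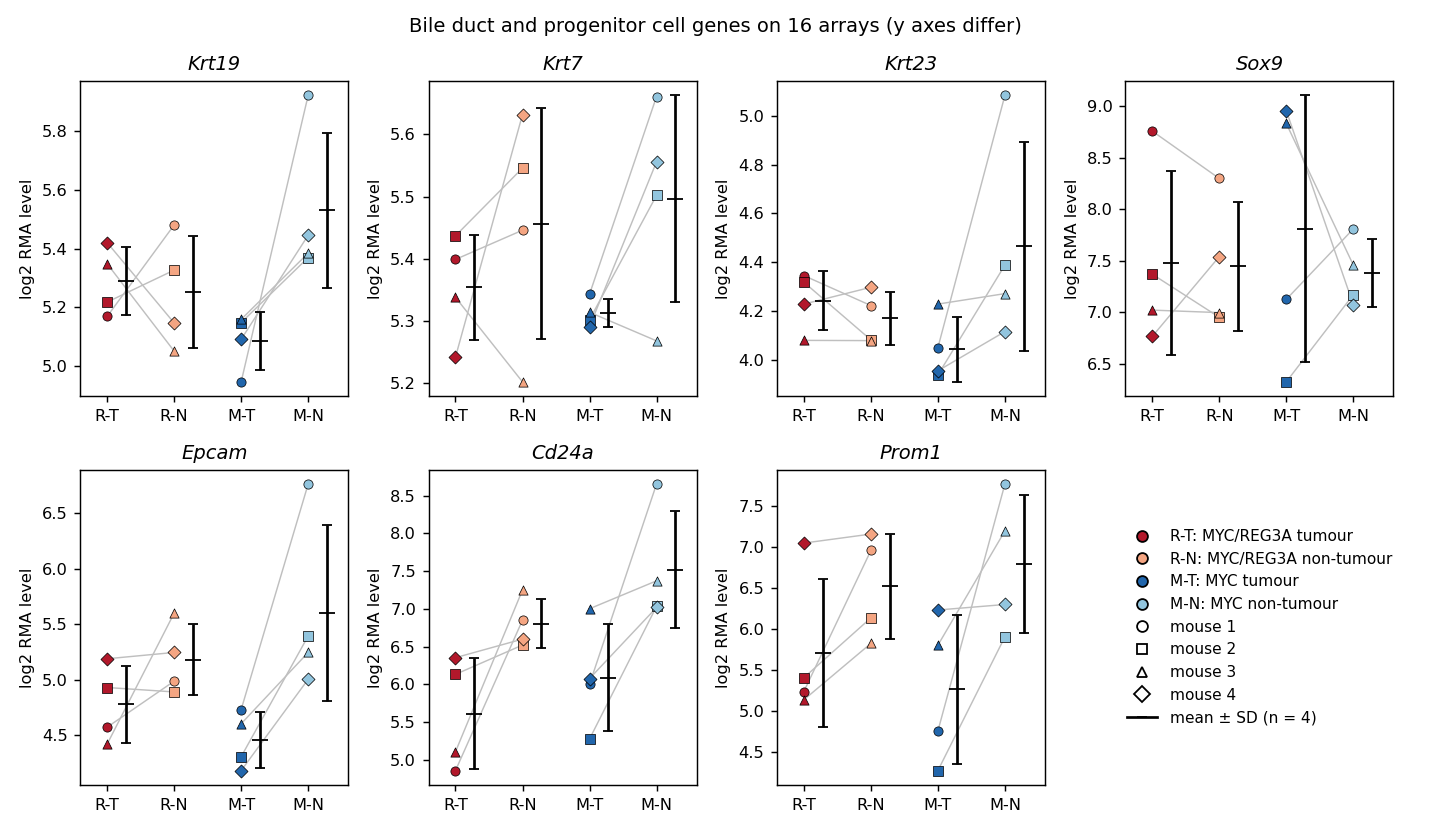
Log2 expression level of each of the 7 bile duct and progenitor genes on each of the 16 arrays; columns hold MYC/REG3A tumours (R-T), MYC/REG3A non-tumour livers (R-N), MYC tumours (M-T) and MYC non-tumour livers (M-N), points are mice, grey lines join the tissues of a mouse, and bars show the mean and SD of 4 mice. Within each genotype the Cd24a tumours lie below the livers without overlap, whereas the Sox9 tumours span 6.33 to 8.95. Of all tested genes, 14.1% in MYC mice and 8.29% in MYC/REG3A mice had tumours lower without overlap.

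Epcam encodes an adhesion protein of epithelia that cholangiocytes carry and adult hepatocytes lack. In MYC mice 1 to 4 its log2 level was 4.73, 4.31, 4.60 and 4.18 in tumours, against 6.76, 5.39, 5.25 and 5.004 in non-tumour livers. All 4 tumours lay below all 4 livers, and the liver of mouse 1 stood above the rest. For MYC/REG3A mice 1 to 4 the levels were 4.57, 4.93, 4.42 and 5.19 in tumours, against 4.99, 4.89, 5.60 and 5.25 in non-tumour livers. These groups overlapped, and the tumour of mouse 2 was 0.04 above its own liver while the other 3 tumours were below theirs. The fitted change was -1.15 in MYC mice (limma SE 0.24, adjusted p = 0.00665), a level 0.452 times that of non-tumour liver. It was -0.40 in MYC/REG3A mice (limma SE 0.24, 95% interval -0.95 to 0.14, adjusted p = 0.3004). Over both genotypes it was -0.77 (limma SE 0.17, adjusted p = 0.00580), with 7 of 8 tumours lower. The call in MYC mice held under all 17 alternatives tried, with changes of -1.31 to -0.85. Some of the 17, such as another filter or leaving out MYC/REG3A mice, cannot move this change and alter only its SE and p. Epcam exceeded the array's median on 9 of the 16 arrays, among them all 4 MYC livers but no MYC tumour. Its levels in MYC tumours were thus low on the array, and how far they stood above background is not known.

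Cd24a encodes a small glycoprotein anchored in the membrane that is found on progenitor cells, cholangiocytes and many blood cells. In MYC mice 1 to 4 its level was 6.00, 5.28, 7.002 and 6.08 in tumours, against 8.65, 7.03, 7.37 and 7.02 in non-tumour livers. The MYC/REG3A levels were 4.86, 6.13, 5.11 and 6.35 in tumours, against 6.85, 6.52, 7.25 and 6.60 in non-tumour livers. Within each genotype all 4 tumours lay below all 4 livers, though the tumour of MYC mouse 3 was only just under the lowest MYC liver, and each of the 8 tumours was below its own liver. For MYC/REG3A mice 2 and 4, whose tumours lay between tumours and livers on the first principal component, the change from liver to tumour was -0.39 and -0.25, while it was -1.99 and -2.14 in mice 1 and 3. The fitted change was -1.43 in MYC mice (limma SE 0.40, adjusted p = 0.0226), a level 0.371 times that of liver. The change was -1.19 in MYC/REG3A mice (limma SE 0.40, 95% interval -2.09 to -0.29), with an adjusted p of 0.0781 and an unadjusted p of 0.0145. Over both genotypes it was -1.31 (limma SE 0.28, adjusted p = 0.00504).

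The Cd24a call in MYC mice was kept under 15 of 17 alternatives, but leaving out 1 mouse could end it. Without MYC mouse 1 the change in MYC mice was -1.02 (limma adjusted p = 0.0972) and without MYC mouse 2 it was -1.32 (limma adjusted p = 0.0675). Without both MYC/REG3A mice 2 and 4 the change in MYC/REG3A mice was -2.07 (limma adjusted p = 0.0323), while 0 of the 6 genes passed there when any single mouse was left out. Groups that do not overlap, with tumours lower, were found for 14.1% of all tested genes in MYC mice, where Cd24a, Epcam and Krt19 were among them, and for 8.29% in MYC/REG3A mice, where Cd24a was the only one of the 7. A second, dimmer array row of Cd24a lay below the array's lower quartile on 12 of the 16 arrays. It averaged 3.48 in MYC/REG3A tumours and 3.66 in MYC/REG3A livers, and 3.55 in MYC tumours and 4.08 in MYC livers.

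Prom1 encodes prominin, a protein of membrane protrusions that marks progenitor cells in several organs. In MYC mice 1 to 4 its level was 4.76, 4.28, 5.80 and 6.23 in tumours, against 7.77, 5.91, 7.20 and 6.30 in non-tumour livers. MYC/REG3A mice had 5.24, 5.41, 5.14 and 7.05 in tumours, against 6.96, 6.14, 5.83 and 7.16 in non-tumour livers. All 8 tumours lay below their own liver, but the groups overlapped in both genotypes, and the tumours of mouse 4 of either genotype were close to their liver. Prom1 changed by -1.52 in MYC mice (limma SE 0.39, adjusted p = 0.0153), to 0.348 times the level of liver. The MYC/REG3A change was -0.81 (limma SE 0.39, 95% interval -1.68 to 0.06, adjusted p = 0.197), and over both genotypes it was -1.17 (limma SE 0.28, adjusted p = 0.00774). Without MYC mouse 1 the value in MYC mice was -1.03 and missed the threshold (limma adjusted p = 0.0550).

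**Figure D2:**
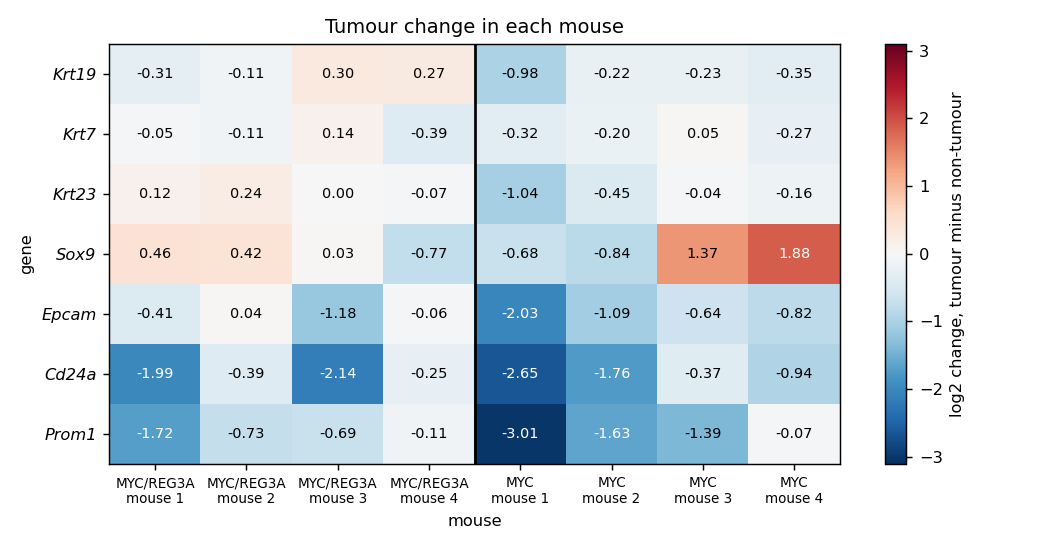
Change in log2 level, tumour minus non-tumour liver of the same mouse, for the 7 genes (rows) and 8 mice (columns, MYC/REG3A mice left of MYC mice); blue is lower in the tumour and red is higher. Cd24a and Prom1 are lower in 8 of 8 mice and Epcam in 7, and Sox9 is lower in 3.

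RefSeq promoter windows on the GRCm38.p6 build, 250 bases before and 50 after the annotated start, were at hand for 4 of the 7 genes: Epcam, Prom1, Krt7 and Krt23. Prom1 had 2 windows, of which the first listed is printed. It does not lie at the outermost annotated start of the gene. The 250 bases before the start are shown for Epcam and Prom1, which were lower in MYC tumours, and for Krt7, which did not pass. They are written 5′ to 3′ in the direction of the gene, with motif matches in capitals. The Epcam sequence is chr17:87635729-87635978 on the plus strand, that of Prom1 chr5:44101737-44101986 on the minus strand, and that of Krt7 chr15:101412153-101412402 on the plus strand.
Epcam: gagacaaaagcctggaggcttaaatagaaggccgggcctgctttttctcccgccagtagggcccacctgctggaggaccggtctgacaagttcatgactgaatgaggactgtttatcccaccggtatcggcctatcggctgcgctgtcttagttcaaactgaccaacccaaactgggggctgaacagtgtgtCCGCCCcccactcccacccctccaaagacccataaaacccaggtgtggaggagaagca
Prom1: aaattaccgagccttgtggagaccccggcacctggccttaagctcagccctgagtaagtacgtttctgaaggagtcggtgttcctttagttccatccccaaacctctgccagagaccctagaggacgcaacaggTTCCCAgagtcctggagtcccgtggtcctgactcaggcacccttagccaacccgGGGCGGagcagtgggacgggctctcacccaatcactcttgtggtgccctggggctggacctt
Krt7: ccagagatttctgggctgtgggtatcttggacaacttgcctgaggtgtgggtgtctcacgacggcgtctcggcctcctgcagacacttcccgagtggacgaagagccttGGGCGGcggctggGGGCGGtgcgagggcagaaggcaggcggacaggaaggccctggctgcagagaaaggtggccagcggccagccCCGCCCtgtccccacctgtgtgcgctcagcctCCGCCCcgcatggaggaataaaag
A further 30 bases after the Epcam start, chr17:87635997-87636026 on the plus strand, hold CACGTG, the E-box motif that MYC is known to bind.
Epcam after the start: ggactgattctgCACGTGagacctgcggcg
The windows were searched on both strands for the E-box CACGTG, the RBPJ core TGGGAA of Notch signalling, the TEAD core GGAATG, the TATA box TATAAA and the GC box GGGCGG, and no 2 of the motifs share letters in these windows. With the start as position 1, Epcam had an E-box at 31 and a GC box at -58. The printed Prom1 window had an RBPJ core at -116, read on the reverse strand, and a GC box at -62. The other Prom1 window was also searched and held none of the motifs. Krt7 had GC boxes at -141, -128, -56 and -24. Krt23, whose sequence is not printed, had an E-box at -169. Among 32851 windows of the same length, 7.15% held an E-box, 25.6% an RBPJ core, 14.7% a TEAD core, 13.6% a TATA box and 35.7% a GC box. A match describes letters and not a binding site.

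Krt19, a keratin of cholangiocytes that adult hepatocytes do not make, moved less. In MYC mice 1 to 4 its level was 4.95, 5.15, 5.16 and 5.09 in tumours, against 5.92, 5.37, 5.39 and 5.45 in non-tumour livers. Levels in MYC/REG3A mice were 5.17, 5.22, 5.35 and 5.42 in tumours, against 5.48, 5.33, 5.05 and 5.15 in non-tumour livers. The MYC groups did not overlap, and the MYC/REG3A groups did, with 2 tumours above and 2 below their own liver. The change in MYC mice was -0.45 (limma SE 0.15, adjusted p = 0.0490), close to the threshold, and 9 of 17 alternatives lost the call. Among these were the removal of each MYC mouse in turn and testing without a filter on low levels (limma adjusted p = 0.0635). The MYC/REG3A change was 0.04 (limma SE 0.15, adjusted p = 0.900).

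Krt7, another keratin of duct cells, ranged from 5.24 to 5.44 in MYC/REG3A tumours and from 5.20 to 5.63 in MYC/REG3A livers, and from 5.29 to 5.34 in MYC tumours and from 5.27 to 5.66 in MYC livers. Its change was -0.10 in MYC/REG3A mice (limma 95% interval -0.35 to 0.15, adjusted p = 0.580) and -0.18 in MYC mice (limma 95% interval -0.43 to 0.06, adjusted p = 0.231). The 8 tumours were close to each other in Krt7, with an SD of 0.062, against 0.165 among the 8 livers, and 0.4% of tested genes had a lower SD over the tumours. Krt23, a keratin known from injured ducts, was dim. It ranged from 4.08 to 4.35 in MYC/REG3A tumours and from 4.08 to 4.30 in MYC/REG3A livers, and from 3.94 to 4.23 in MYC tumours and from 4.12 to 5.09 in MYC livers, the highest being the liver of mouse 1. Without the filter its change was 0.07 in MYC/REG3A mice (limma adjusted p = 0.846) and -0.42 in MYC mice (limma adjusted p = 0.0743).

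Hepatocytes themselves make Krt8 and Krt18. Krt8 was 0.84 higher in MYC tumours (limma SE 0.24, adjusted p = 0.0250), a call lost without MYC mouse 3, and the change of its partner Krt18 was 0.63 (limma adjusted p = 0.0695). In MYC/REG3A mice the change of Krt8 was 0.83, with a limma adjusted p just above the threshold of 0.05. Of 4 tested keratins outside the list, Krt8 was the 1 that passed in MYC mice, where 33.2% of all tested genes did. In MYC/REG3A mice 0 passed, against 12.5% of all tested genes. Averaged over both genotypes, the comparison added after seeing the data, 2 of the 4 were higher, Krt8 and Krt18, where 43.0% of all tested genes passed. The Krt18 call there was lost without MYC/REG3A mice 2 and 4. The difference between these keratins and those of duct cells was not tested.

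Sox9, a transcription factor of duct cells, had no shared direction. In MYC mice 1 to 4 its level was 7.13, 6.33, 8.83 and 8.95 in tumours, against 7.81, 7.17, 7.46 and 7.08 in non-tumour livers. Those of MYC/REG3A mice were 8.76, 7.37, 7.02 and 6.77 in tumours, against 8.30, 6.95, 6.998 and 7.54 in non-tumour livers. MYC tumours 3 and 4 lay above their livers, by 1.37 and 1.88, while the changes of tumours 1 and 2 were -0.68 and -0.84. The SD of Sox9 was 1.04 over the 8 tumours and 0.465 over the 8 livers, and 98.5% of tested genes had a lower SD over the tumours. The fitted change was 0.43 in MYC mice (limma SE 0.43, 95% interval -0.52 to 1.38, adjusted p = 0.471) and 0.03 in MYC/REG3A mice (limma SE 0.43, 95% interval -0.92 to 0.98, adjusted p = 0.971). Both intervals hold rises as well as falls.

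**Figure D3:**
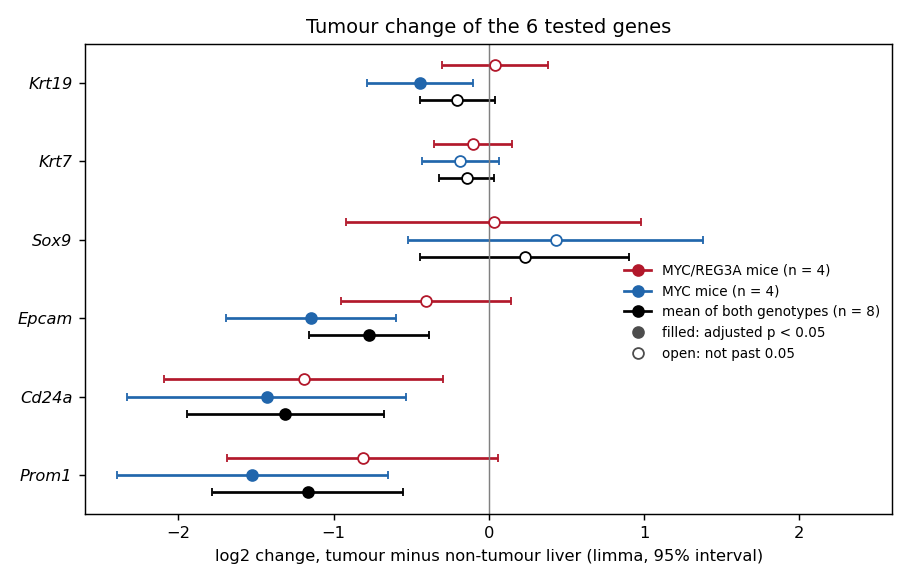
Fitted change in log2 level, tumour minus non-tumour liver, for the tested genes with 95% intervals from limma, in MYC/REG3A mice (red), in MYC mice (blue) and as the mean of both genotypes (black); filled points are past the adjusted threshold of 0.05. The intervals of Epcam, Cd24a, Prom1 and Krt19 in MYC mice, and of Cd24a in MYC/REG3A mice, do not reach 0.

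No difference between the genotypes passed the test. The difference of the tumour changes, MYC/REG3A minus MYC, called 0 of the 6 genes (0.00738% of all tested genes) and 0 at an unadjusted limma p under 0.05. It was 0.48 for Krt19 (limma unadjusted p = 0.0507, adjusted p = 0.873) and 0.74 for Epcam (limma 95% interval -0.03 to 1.52, adjusted p = 0.873). It was 0.71 for Prom1 (limma adjusted p = 0.894), so the calls of these 3 genes in MYC mice are not shown to be particular to that genotype. In non-tumour livers, MYC/REG3A against MYC, 0 of 6 genes passed and 0.0% of all tested genes did. The difference there was -0.71 for Cd24a (limma adjusted p = 0.970) and -0.28 for Krt19, the only 1 of the 6 with an unadjusted limma p under 0.05 (0.0466, adjusted p = 0.905). Between tumours, MYC/REG3A against MYC, 0 of 6 passed, against 0.0221% of all tested genes, and 0 had an unadjusted limma p under 0.05. The difference was 0.20 for Krt19, whose MYC/REG3A tumours lay above all MYC tumours (limma adjusted p = 0.591), as was so for 1.63% of all tested genes.

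Of 14 tested duct genes outside the 8, Krt8 and Krt18 among them, 2 were higher, one of them Krt8, and 4 lower in MYC tumours, where 33.2% of all tested genes passed. Onecut1, a liver and duct transcription factor, changed by -2.47 (limma SE 0.28, adjusted p = 0.000697), and Aqp1, a water channel of cholangiocytes and vessels, by -1.22 (limma SE 0.14, adjusted p = 0.000770). The mucin Muc1 changed by -0.68 (limma adjusted p = 0.00575), while Elf3, an epithelial transcription factor, was 1.87 higher (limma SE 0.40, adjusted p = 0.00643). In MYC/REG3A tumours, where 12.5% of all tested genes passed, 0 of the 14 were higher and 2 lower, Onecut1 at -0.99 (limma adjusted p = 0.0471) and Aqp1 at -0.54 (limma adjusted p = 0.0373). Leaving out any 1 of MYC/REG3A mice 1, 3 and 4 ended both of these calls, and without the mouse as a block both were lost. The mean level of the 14 genes was 6.99 to 7.35 in MYC/REG3A tumours and 7.11 to 7.32 in MYC/REG3A livers, and 6.95 to 7.51 in MYC tumours and 7.21 to 7.98 in MYC livers, so it overlapped in both genotypes.

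Of 10 tested genes of fetal liver and progenitors, 1 was higher and 3 lower in MYC tumours, against 33.2% of all tested genes. In MYC/REG3A tumours 0 of them passed, against 12.5% of all tested genes. Without MYC mouse 1 the counts were 0 higher and 1 lower, and without MYC mouse 4 they were 2 higher and 0 lower. Lgr5, a Wnt target of stem cells and of hepatocytes near central veins, changed by -2.98 in MYC tumours (limma SE 0.74, adjusted p = 0.0135), a call lost without MYC mouse 4. Igf2bp3, a fetal RNA-binding protein, was 2.76 higher (limma SE 0.72, adjusted p = 0.0167), a call lost without MYC mouse 1. Of 14 Notch pathway genes, which guide duct formation, 2 were higher and 3 lower in MYC tumours, a share near the 33.2% of all tested genes, and without MYC mouse 4 the counts were 2 higher and 1 lower. The ligand Dll1 changed by -0.59 (limma adjusted p = 0.00253) and the receptor Notch1 by 0.66 (limma adjusted p = 0.00482). Of 15 YAP and TEAD pathway genes, which control growth and duct fate, 0 were higher and 5 lower in MYC tumours. Of all tested genes, 17.4% were called higher and 15.8% lower there. Amotl1 changed by -0.67, Ccn1 by -0.68 and Lats2 by -0.81 (limma adjusted p = 0.00199, 0.00320 and 0.00369), and the Ccn1 call was lost without the mouse as a block. In MYC/REG3A tumours 0 Notch genes and 0 YAP and TEAD genes passed, against 12.5% of all tested genes. The differences of these changes between genotypes called 0 genes of any of these lists.

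Of 8 Sox genes other than Sox9, 0 were higher and 1 lower in MYC tumours, where 33.2% of all tested genes passed. In MYC/REG3A tumours 2 were higher and 1 lower, where 12.5% of all tested genes passed. Sox7, a factor of endothelium, changed by -0.36 in MYC/REG3A mice and -0.31 in MYC mice (limma adjusted p = 0.0386 and 0.0345). Sox4 changed by 0.63 and Sox12 by 0.39 in MYC/REG3A mice (limma adjusted p = 0.0308 and 0.0474). Leaving out any 1 of MYC/REG3A mice 1, 2 and 3 ended the Sox4, Sox7 and Sox12 calls in that genotype, and leaving out MYC mouse 1, 2 or 4 ended the Sox7 call in MYC mice. All 4 calls were also lost without the mouse as a block. Osteopontin, the product of Spp1, binds integrins and Cd44. Of 8 such receptor genes 1 was higher and 4 lower in MYC tumours. Of all tested genes 33.2% passed there, 17.4% as higher and 15.8% as lower. In MYC/REG3A tumours 0 were higher and 1 lower, against 12.5% of all tested genes (4.88% as lower). Without MYC mouse 4 the MYC counts were 0 higher and 1 lower, and without MYC/REG3A mouse 1 or 3 the MYC/REG3A counts were 0 and 0.

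**Figure D4:**
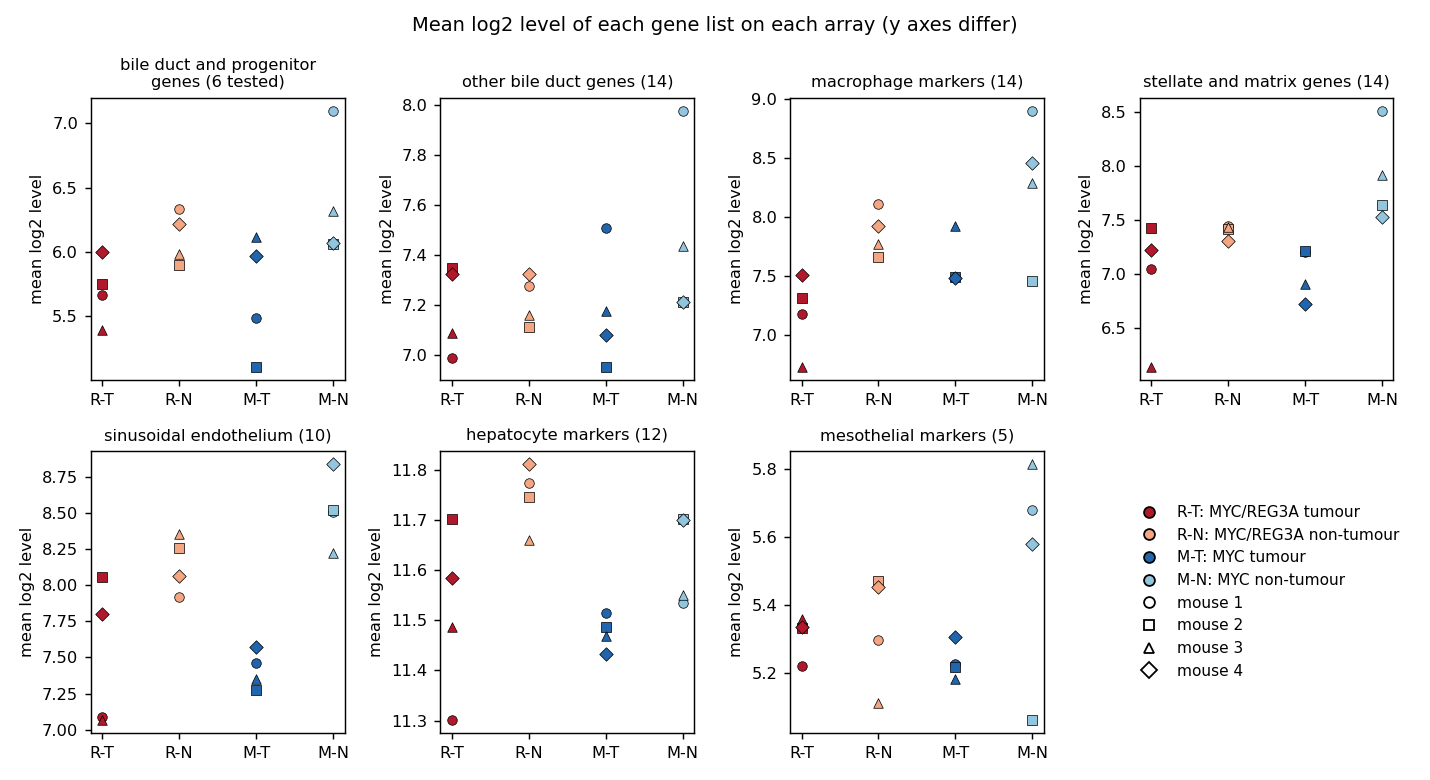
Mean log2 level over the tested genes of 7 lists on each of the 16 arrays, 1 panel per list; columns hold MYC/REG3A tumours (R-T), MYC/REG3A non-tumour livers (R-N), MYC tumours (M-T) and MYC non-tumour livers (M-N), and the symbol gives the mouse. The liver of MYC mouse 1 is highest for the bile duct and progenitor genes (7.10), the other bile duct genes (7.98), the macrophage markers (8.90) and the stellate and matrix genes (8.51).

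Many markers of other liver cells were lower in the same tumours. In MYC/REG3A tumours 7 of 10 sinusoidal endothelial, 4 of 14 stellate cell and matrix and 8 of 14 macrophage genes were lower, and in MYC tumours 9 of 10, 8 of 14 and 8 of 14, with 1 macrophage gene higher. Of all tested genes 4.88% were called lower in MYC/REG3A tumours and 15.8% in MYC tumours, which holds beside every list in this paragraph. Without MYC/REG3A mouse 1 the MYC/REG3A counts of lower genes were 0, 0 and 2, and without MYC/REG3A mouse 3 they were 0, 1 and 1, and without MYC/REG3A mouse 4 the sinusoidal count was 4. Without MYC mouse 4 the macrophage count in MYC tumours was 5 lower. The calls over all tested genes also fell when these mice were left out, by the counts given at the end. The mean level of the 14 stellate and matrix genes was 6.13 to 7.42 in MYC/REG3A tumours and 7.30 to 7.44 in MYC/REG3A livers, and 6.72 to 7.21 in MYC tumours and 7.52 to 8.51 in MYC livers. The mean of the 14 macrophage genes was 6.73 to 7.51 in MYC/REG3A tumours and 7.67 to 8.11 in MYC/REG3A livers, and 7.48 to 7.93 in MYC tumours and 7.46 to 8.90 in MYC livers. B cells also carry Cd24a. Genes of B and plasma cells were lower for 3 of 6 in MYC/REG3A tumours and 4 of 6 in MYC tumours. These counts became 0 in MYC/REG3A tumours without MYC/REG3A mouse 1 or 3, and 0 in MYC tumours without MYC mouse 1. Genes of mesothelium, which also makes Krt19 and Krt7, were lower for 0 of 5 in MYC/REG3A tumours and 1 of 5 in MYC tumours. Of 12 hepatocyte genes 2 were lower in MYC/REG3A tumours and 3 in MYC tumours. The 2 became 0 without MYC/REG3A mouse 1, 3 or 4, and the 3 became 1 without MYC mouse 2 and 0 without MYC mouse 4. Of 5 neutrophil genes 0 were lower in MYC/REG3A tumours and 4 in MYC tumours, the 4 becoming 1 without MYC mouse 1 or 4. Of 3 erythroid genes and 1 pancreas gene 0 passed in either genotype. The liver of MYC mouse 1, highest in 6 of the 7 bile duct genes, also had the highest mean of the stellate and matrix list (8.51) and of the macrophage list (8.90) among the 8 livers. The part of these cells in the results was not tested.

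Correlations around the group means are given as descriptions, since both arrays of a mouse come from one animal. The deviations of Epcam and Cd24a from their group means had r = 0.783 over 16 arrays, and 0.726 over the 14 arrays without MYC mouse 1. Those of Cd24a and Prom1 had r = 0.640 and 0.553, and those of Epcam and Prom1 r = 0.394 and 0.233. Krt23 and Epcam had r = 0.814 over all arrays and 0.396 without that mouse. The gene most like Epcam was Mmp7, a protease of injured ducts (r = 0.948, and 0.865 without MYC mouse 1), followed by Myo1c (r = 0.896 and 0.723). Cd24a was most like Scara3 (r = 0.867) and Ltbp1 (r = 0.851), Prom1 most like Dennd5a (r = 0.885) and Pwwp2b (r = 0.861). Sox9 was most like Usp43 (r = 0.910) and Rab20 (r = 0.908), and its r with Epcam was -0.010. Krt19 was most like Ttc21a (r = 0.867) and Cdh6 (r = 0.824, and 0.482 without MYC mouse 1), and Krt7 most like Ticam1 (r = 0.815) and Hal (r = 0.778).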

How the data were processed

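Total RNA of tumour and non-tumour liver was hybridised to 16 Affymetrix 1-colour arrays. Per the submitters' processing notes, the authors made the deposited log2 values with RMA, using version 1.4.1 of Affymetrix Expression Console. The base of the logarithm is not given in the sources used here; the range of the values fits log2. RMA equalises the distributions of the arrays, so a change is measured against the rest of the array's genes.

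Of 41345 rows, 23521 had exactly 1 gene symbol, 1814 several and 16010 none, and 23328 matched RefSeq (GRCm38.p6) by Entrez ID. For 1 of the 7 bile duct genes, Cd24a, there were 2 such rows. The tests were 2-sided limma fits (version 3.58.1, R 4.3.3) of the 16 arrays together, and p-values were adjusted by Benjamini-Hochberg across 13555 genes, with a threshold of 0.05. Each mouse was a block in the tumour comparisons, because it gave both tissues; the deviations of its 2 arrays from their group means correlated at 0.0963 to 0.325. Genotype comparisons used the 4 group means. The mean over both genotypes was added after seeing the data. The fit was checked on simulated data with known changes and the same spread for every gene. That check covers the comparisons as coded, not genes as variable as Sox9, Cd24a and Prom1. SE and p-values rest on a spread pooled over groups, and precision is limited by the number of arrays.

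The genes and the 16 other lists were chosen with earlier results of these data known. Named from each other list were up to 4 genes of lowest p in each tumour comparison, and per tested gene the 2 genes of most similar deviations, leaving out predicted genes and small RNAs. Alternatives were the block, the filter, centring, array weights, an intensity trend, averaging of rows, and leaving out mice.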

Additional observations from a re-analysis of the deposited data

Results flagged for a closer look

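In 28 groups of 4 values, made of 7 genes in 4 groups, 2 had a highest value far from the other 3, where chance gives about 1 in 20. Krt19 was highest in the non-tumour liver of MYC mouse 1, at 5.92, with the other MYC livers at 5.37 to 5.45. Prom1 was highest in the tumour of MYC/REG3A mouse 4, at 7.05, with the other MYC/REG3A tumours at 5.14 to 5.41.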

How the results depend on the processing

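The count of bile duct genes called in MYC mice was 4, and leaving out 1 mouse at a time gave 1 to 4. It was 1 without MYC mouse 1, 2 without MYC mouse 2 and 3 without a filter on low levels, where Krt19 was lost. The totals over all tested genes without MYC mouse 1 or 2 are not given here. The count for MYC/REG3A mice was 0 and became 1, Cd24a, without mice 2 and 4. With no replicate block, that is without pairing tissues by mouse, the counts were 4 in MYC mice, 0 in MYC/REG3A mice and 3 over both genotypes, so dropping the block changed no count of bile duct genes called. Over all tested genes, the 4505 calls in MYC mice became 2975 without mouse 4, and the 1690 in MYC/REG3A mice became 281, 273 and 944 without mice 1, 3 and 4. The 3 calls between tumours of the genotypes became 114 without MYC/REG3A mouse 1, and the 0 between livers became 22 without MYC mouse 2. Over both genotypes Epcam, Cd24a and Prom1 were called under all 17 alternatives. Of 686 recomputed values, 666 kept their direction and side of the threshold, or stayed close to the value reported, 12 lost a call, 1 gained one and 7 moved by more than the spread or by over 1.5 times. A count that went from 4 to 3 is among the 666. Some log2 changes could not move, since another filter or leaving out mice of the other genotype returns the same change within a genotype. The 666 is thus no measure of stability. The limits are 4 mice per genotype, unknown signal over background, and calls of Krt19, Cd24a and Prom1 in MYC mice that 1 mouse can end. The cause was not tested.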
